A study of Homo sapiens with 6 samples.

Results

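The 10 chemokine genes described here are counted among the secreted factors of senescent cells and were measured in irradiated HK-2 cells: CXCL1, CXCL2, CXCL3, CXCL5, CXCL6, CXCL8, CXCL10, CXCL16, CCL2 and CCL20. The genes were found by name in a list made with earlier results of these data known, and each was found once among the 38648 genes and gene copies listed for each library, so that 10 of 38648 entries are described here. The bulk RNA-seq data comprised 6 libraries of HK-2, an immortalized line of human proximal tubular cells. In 3 libraries the cells carried a negative control lentivirus (IR+NC-LV, the control libraries) and in 3 a lentivirus overexpressing PRDM16 (IR+PR-LV, the PRDM16 libraries), a transcriptional regulator with zinc fingers, and the methods state that cells without the virus were removed with puromycin. All cells of both groups received 1 X-ray dose of 8 Gy and were collected on day 7, and no unirradiated library was analysed here, so that the levels below are levels after irradiation and not responses to it. The labels number the libraries 1 to 3 in each group without stating separate cultures, and p-values therefore measure only the spread between these samples, which may be technical.

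Chemokines are small secreted proteins that direct the migration of leukocytes through G protein-coupled receptors. CXC chemokines that carry an ELR motif before the first cysteines bind CXCR2, and some of them CXCR1, and attract mainly neutrophils, while CXC chemokines without it and CC chemokines attract mainly lymphocytes, monocytes and dendritic cells. Their genes are classical targets of NF-kB, and in senescent cells they form a large part of the senescence-associated secretory phenotype (SASP), which in the kidney is connected with the recruitment of leukocytes by injured tubules.

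Of the 10 genes, 8 had an entry in the RefSeq promoter table (build GRCh38.p14), while CXCL16 and CCL2 had none. The 250 bases before the start of transcription are shown for CXCL8, CXCL2, CXCL3, CXCL1 and CXCL10, because these span the highest and the lowest levels measured here among genes that carry similar letters in this window. All are on chromosome 4: CXCL8 at chr4:73740319-73740568 (plus strand), CXCL2 at chr4:74099196-74099445 (minus strand), CXCL3 at chr4:74038690-74038939 (minus strand), CXCL1 at chr4:73869143-73869392 (plus strand) and CXCL10 at chr4:76023498-76023747 (minus strand). Each is written 5′ to 3′ on the strand of its gene. The capitals mark matches to the kB consensus, the sequence family bound by NF-kB, and to the motifs GGANNTTCC (a related kB form), TGANTCA (an AP-1 form), an interferon response form (GAAA repeated after a gap of 2 bases) and TATAAA, each searched on both strands.
CXCL8: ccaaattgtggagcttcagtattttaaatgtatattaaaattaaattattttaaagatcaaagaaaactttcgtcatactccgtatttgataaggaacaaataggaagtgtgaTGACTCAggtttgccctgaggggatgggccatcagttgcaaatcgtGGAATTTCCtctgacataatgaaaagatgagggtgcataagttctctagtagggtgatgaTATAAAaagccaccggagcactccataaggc
CXCL2: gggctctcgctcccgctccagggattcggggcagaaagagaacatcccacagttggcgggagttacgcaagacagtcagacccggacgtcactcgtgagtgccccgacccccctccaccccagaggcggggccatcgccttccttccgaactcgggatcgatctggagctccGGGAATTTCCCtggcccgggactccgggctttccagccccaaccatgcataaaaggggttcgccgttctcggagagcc
CXCL3: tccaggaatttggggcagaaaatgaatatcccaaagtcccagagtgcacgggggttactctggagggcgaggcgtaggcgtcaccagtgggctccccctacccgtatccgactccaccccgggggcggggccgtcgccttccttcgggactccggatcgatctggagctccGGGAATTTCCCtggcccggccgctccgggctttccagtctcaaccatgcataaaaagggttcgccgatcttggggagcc
CXCL1: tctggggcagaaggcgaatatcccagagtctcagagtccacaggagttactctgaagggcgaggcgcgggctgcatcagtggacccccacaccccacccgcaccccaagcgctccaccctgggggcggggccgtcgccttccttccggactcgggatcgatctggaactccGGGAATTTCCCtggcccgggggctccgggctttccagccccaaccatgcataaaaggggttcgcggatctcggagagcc
CXCL10: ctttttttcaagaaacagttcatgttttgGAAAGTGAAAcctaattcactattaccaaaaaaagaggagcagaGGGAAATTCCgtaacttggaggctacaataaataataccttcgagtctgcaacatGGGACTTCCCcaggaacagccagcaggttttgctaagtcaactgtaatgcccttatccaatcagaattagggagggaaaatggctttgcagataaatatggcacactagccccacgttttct

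GGANNTTCC was found in 7 of the 8 windows (all 6 ELR genes and CXCL10) and in 3.84% of the 35116 promoter windows of the same table cut to the same length. The kB consensus was likewise found in 7 of 8 (all but CXCL8) and in 9.96% of all windows, and its matches overlap those of GGANNTTCC except in CCL20 and at a second place in CXCL10 (-122 to -113). Its first match lay at -79 to -70 from the start in both CXCL1 and CXCL3 and at -78 to -69 in CXCL2. TGANTCA was found only in CXCL8 among the 8 windows (-137 to -131; 6.57% of all windows), the interferon response form only in CXCL10 (-221 to -212; 3.02% of all windows), and TATAAA in CXCL8 and CCL20 (10.7% of all windows). The windows of CXCL1 and CXCL3 were identical at 81.4% of all columns of their alignment, those of CXCL1 and CXCL2 at 68.0%, and those of CXCL5 and CXCL6 at 85.3%. Columns with a gap count as not identical, so identity over the paired bases alone is higher. These matches describe the reference sequence, and no binding was measured.

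Total counts ranged from 13407074 to 28540041 per library. The overexpressed gene PRDM16 had 2, 0 and 1 counts with the control virus and 14, 10 and 8 with its own virus. These were too few to pass the filter on low counts but higher in each PRDM16 library. Its mean was 0.0245 TPM in the control libraries and 0.201 TPM in the PRDM16 libraries, a low level in both groups. With edgeR's quasi-likelihood test and Benjamini-Hochberg adjustment over the 15340 entries that passed that filter, 10 entries differed between the groups at an adjusted p-value under 0.05. Of the 6 epithelial markers 5 reached a mean of 1 TPM, but the adhesion protein E-cadherin (CDH1) had 0.420 TPM (71 counts in the 6 libraries). In addition, 4 of 10 proximal tubule markers (PAX8, CDH6, GGT1 and AQP1) reached a mean of 1 TPM, whereas the apical receptor LRP2 and the transporter SLC22A6 had at most 3 counts in all 6 libraries. Of the 10 leukocyte markers 5 reached 1 TPM, and they summed to 208 to 228 TPM in the control libraries and 175 to 191 TPM in the PRDM16 libraries, most of it CD68 (154 to 199 TPM), and the general leukocyte gene PTPRC had 10 counts in the 6 libraries. The 7 fibroblast markers summed to 131 to 136 TPM and 106 to 151 TPM, most of it LUM (92.7 to 140 TPM), and the 5 endothelial markers to 0.640 TPM at most. The part of these differences in the values below was not tested.

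The 10 chemokine genes were expressed over a range of more than 3 orders of magnitude, and CXCL8 stood far above the others. Levels between genes are given in TPM, counts divided by exon length with an equal total in all libraries. CXCL8, the main neutrophil attractant in humans and a ligand of CXCR1 and CXCR2, was at 5338, 5890 and 4015 TPM in the control libraries and at 4906, 6701 and 6606 TPM in the PRDM16 libraries. Among all listed entries it ranked between 3 and 9 in the single libraries, and by the mean over the 6 libraries (5576 TPM) it ranked 5, behind GAPDH, EEF1A1, TMSB4X and ACTB and before the ferritin light chain FTL. It alone took 0.246% to 0.424% of all counts of a library and 83.6% to 89.5% of the summed TPM of the 10 genes. Its gene spans chr4:73740569-73743716 on the plus strand and has 2058 exon bases.

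CXCL2 (chr4:74097040-74099195, minus strand) and CXCL3 (chr4:74036589-74038689, minus strand), both ligands of CXCR2, followed CXCL8. CXCL2 had 530, 461 and 443 TPM in the control libraries and 373, 418 and 444 TPM in the PRDM16 libraries. CXCL3 had 238, 255 and 257 TPM in the control libraries and 165, 217 and 219 TPM in the PRDM16 libraries. In each of the 6 libraries CXCL8 was above CXCL2 and CXCL2 above CXCL3, by 9.06 to 16 times and by 1.73 to 2.26 times.

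CCL20 (chr2:227813842-227817556, plus strand), the ligand of CCR6 on dendritic cells and subsets of lymphocytes, had 59.0, 67.3 and 47.2 TPM in the control libraries and 45.9, 73.1 and 74.1 TPM in the PRDM16 libraries. CXCL5 (chr4:73995642-73998677, minus strand), a further CXCR2 ligand, had 42.8, 48.6 and 26.6 TPM in the control libraries and 45.9, 57.7 and 58.7 TPM in the PRDM16 libraries. CCL20 was above CXCL5 in all 6 libraries, but the ranges of these neighbours overlapped within each group.

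The remaining 5 genes were below 10 TPM in every library. CXCL16 (chr17:4733533-4739928, minus strand), a transmembrane chemokine that binds CXCR6 and can be shed from the surface, was at 8.41, 8.09 and 7.85 TPM in the control libraries and at 9.25, 8.26 and 8.86 TPM in the PRDM16 libraries. CCL2 (chr17:34255285-34257203, plus strand), the monocyte attractant that binds CCR2, was at 5.49, 7.37 and 4.74 TPM and at 3.36, 5.38 and 4.06 TPM. CXCL6 (chr4:73836678-73838760, plus strand), which binds CXCR1 and CXCR2, was at 1.51, 1.87 and 0.816 TPM in the control libraries and at 1.37, 2.30 and 2.07 TPM in the PRDM16 libraries.

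**Figure D1:**
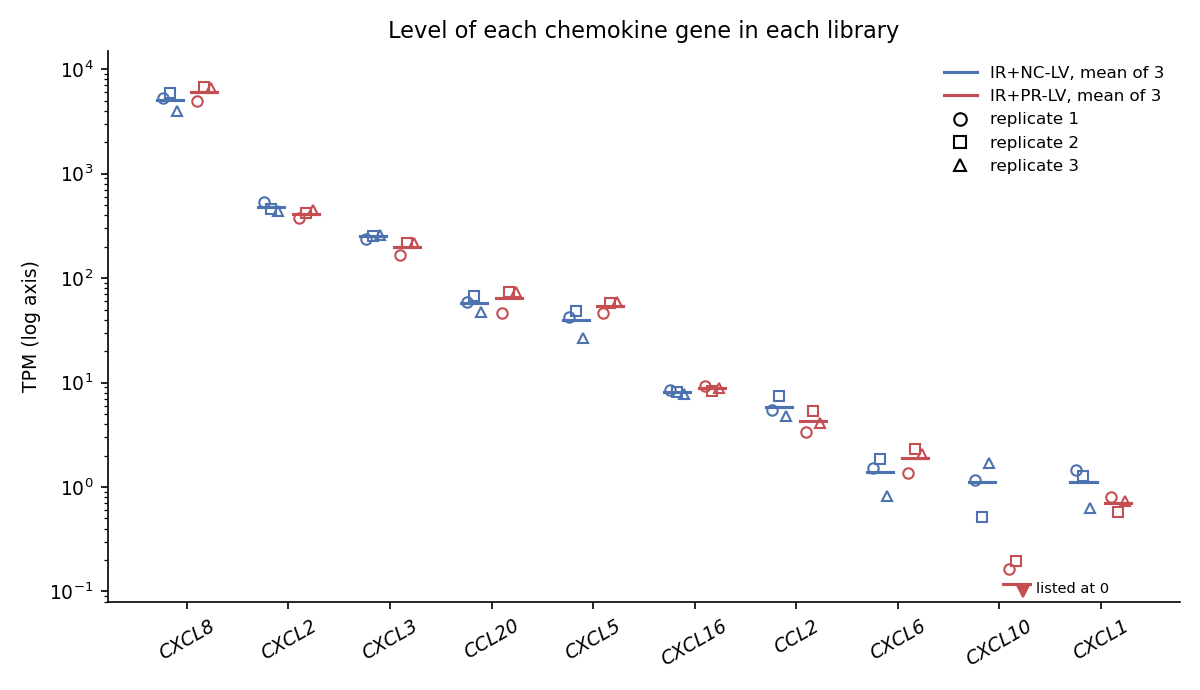
TPM (log axis) of the 10 chemokine genes in each of the 6 libraries, ordered by the mean in the control libraries. Symbols are single libraries, horizontal lines are means of 3 libraries, and the filled triangle marks the library in which CXCL10 is listed at 0. CXCL8 lies between 4015 and 6701 TPM, above all other genes in every library.

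CXCL1 and CXCL10 were near the limit of detection. CXCL1 (chr4:73869393-73871308, plus strand), a CXCR2 ligand, had 9, 10 and 3 counts in the control libraries and 5, 6 and 5 counts in the PRDM16 libraries, or 0.571 to 1.46 TPM. Its transcript was identical to that of CXCL2 at 80.1% of the alignment columns, with gaps counted as not identical. CXCL8 was 3662 to 11740 times and CXCL2 364 to 732 times as high as CXCL1 in the same library. All 100-base stretches of the longest coding transcript of each of the 10 genes occurred in no other gene of GENCODE release 29, CXCL1 included, so that reads of this length can be assigned to one of these genes by sequence. The aligner and the strand setting of the counting are not given in the sources used here, and a loss of CXCL1 reads in these steps was not tested. CXCL10 (chr4:76021118-76023497, minus strand), the interferon-induced ligand of CXCR3, had 7, 4 and 8 counts in the control libraries and 1, 2 and 0 counts in the PRDM16 libraries. A count of 0 in the last of these libraries allows up to 0.161 CPM (the count scaled to the library total). Such limits and the counting intervals below cover counting error only, because reads were not tied to single molecules by identifiers.

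In the order by mean TPM in IR+NC-LV, from CXCL8 over CXCL2, CXCL3, CCL20, CXCL5, CXCL16 and CCL2 to CXCL6, CXCL10 and CXCL1, neighbours did not overlap in that group down to CXCL6, except for CCL20 and CXCL5. CXCL6, CXCL10 and CXCL1 overlapped in the control libraries. In IR+PR-LV, CXCL6 was above CXCL1 and CXCL1 above CXCL10 without overlap.

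Along chromosome 4 the levels did not follow the order of the genes. The ELR genes form 1 cluster with the platelet chemokine genes PF4, PF4V1 and PPBP, of which CXCL8 is the first and CXCL2 the last, with 359 kb between their 5′ ends. CXCL6 and CXCL1, at 96.1 and 129 kb from the start of CXCL8 and on the same strand, had means of 1.40 ± 0.538 and 1.12 ± 0.434 TPM (SD, n = 3) in the control libraries. CXCL5, CXCL3 and CXCL2, at 258, 298 and 359 kb and on the opposite strand, had 39.3 ± 11.4, 250.1 ± 10.2 and 478 ± 45.9 TPM (SD, n = 3). The 3 platelet genes had 1 (PF4), 2 (PF4V1) and 13 (PPBP) counts in the 6 libraries together. CXCL1 was thus at 1.46 TPM at most, while CXCL3, whose promoter window is the most like its own among those compared, was at 165 TPM or more.

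**Figure D2:**
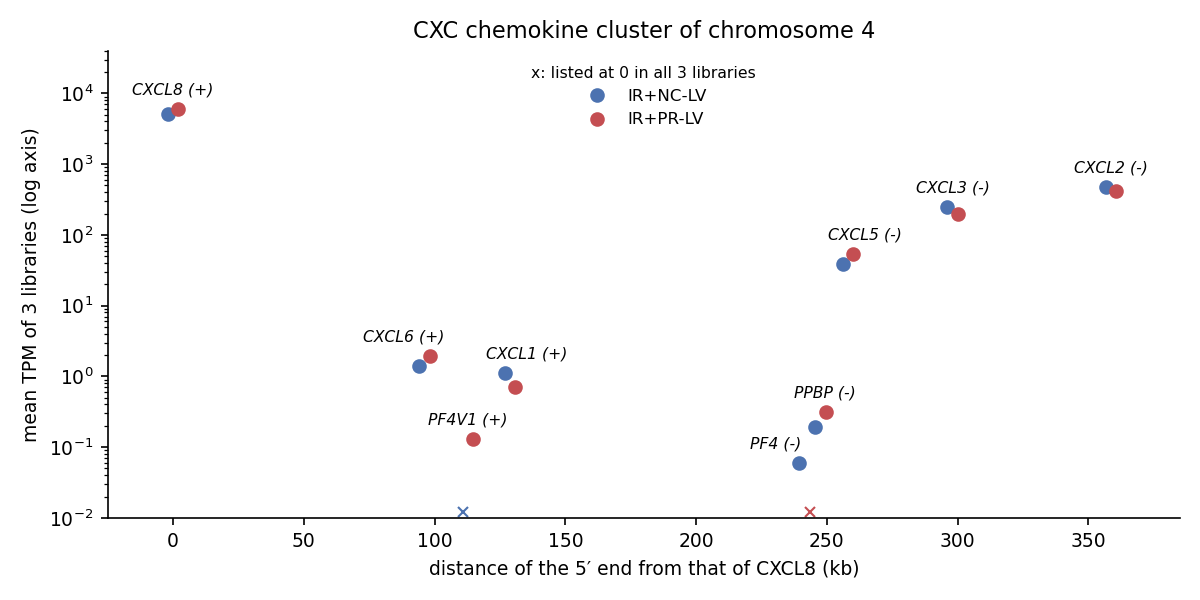
Mean TPM of 3 libraries (log axis) against the distance of each gene's 5′ end from that of CXCL8 in kb, for the 6 ELR genes and 3 platelet chemokine genes of the chromosome 4 cluster. The strand is given in brackets, and x marks a group in which a gene is listed at 0 in all 3 libraries. The 3 genes at 258 to 359 kb lie between 39.3 and 478 TPM, and CXCL6 and CXCL1 at 96.1 and 129 kb lie below 2 TPM.

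To compare the effect of the PRDM16 lentivirus, the 8 chemokine genes that passed the filter on low counts were read from the fit over all entries. None of the 8 passed the adjusted threshold, against 0.0652% of all tested entries. The test of CXCL3 gave an unadjusted p-value under 0.05, as did 10.5% of all entries (1 of 8 chemokines). The groups did not overlap in TMM-normalized CPM for 2 of 8 (CXCL3 lower and CXCL16 higher in the PRDM16 libraries), against 17.0% of all entries (9.54% lower and 7.46% higher). With 8 genes, these counts do not set the chemokines apart from the background. The median log2 fold change of the 8 genes was 0.16, beside 0.0044 over all tested entries, with 5 positive and 3 negative values. This median was 0.06 without IR+NC-LV replicate 3, and over all 10 genes it was -0.0076 without the filter and -0.0061 with DESeq2. In bulk RNA, fewer expressing cells and less RNA per cell cannot be told apart.

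Among the ELR genes, the estimates went in both directions. CXCL8 had 3182 ± 732 CPM in the control libraries and 3882 ± 644 CPM in the PRDM16 libraries (SD, n = 3 each). The estimate was 1.22-fold (log2 fold change 0.29, 95% interval -0.10 to 0.67, adjusted p = 0.596 from edgeR). The groups overlapped, with IR+NC-LV replicate 3 the lowest of the 6 libraries. Without that library the log2 fold change of CXCL8 was 0.12, and without IR+NC-LV replicate 2 it was 0.43. CXCL5 had the largest estimate of the 8 genes, from 29.2 ± 9.58 to 40.9 ± 5.32 CPM (SD, n = 3 each). This is a log2 fold change of 0.48 (95% interval -0.00091 to 0.95, adjusted p = 0.477 from edgeR). It was again lowest in IR+NC-LV replicate 3, without which the log2 fold change was 0.25, and it was 0.69 without IR+NC-LV replicate 2. When every entry with a count was tested without the filter, CXCL5 passed (adjusted p = 0.0312 from edgeR), in a fit that called 342 entries.

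CXCL6 had 0.659 ± 0.275 and 0.914 ± 0.233 CPM (SD, n = 3 each), from 36 counts in the control libraries and 60 in the PRDM16 libraries. Its log2 fold change was 0.44 with a 95% interval of -0.35 to 1.24 (adjusted p = 0.704 from edgeR), 0.20 without IR+NC-LV replicate 3 and 0.76 without IR+NC-LV replicate 2.

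CXCL2 and CXCL3 had estimates of the other sign. CXCL3 had 78.8, 85.9 and 79.2 CPM in the control libraries and 55.3, 73.1 and 72.2 CPM in the PRDM16 libraries. All PRDM16 libraries were below all control libraries (2-sided exact permutation test, p = 0.1, which 3 against 3 libraries cannot go below). The log2 fold change was -0.28 (95% interval -0.52 to -0.04, unadjusted p = 0.0262, adjusted p = 0.406 from edgeR), -0.16 when IR+PR-LV replicate 1 was left out and -0.35 without IR+PR-LV replicate 2. CXCL2 had 161 ± 19.99 and 143 ± 11.6 CPM (SD, n = 3 each) and overlapped between the groups, with a log2 fold change of -0.18 (95% interval -0.40 to 0.04, adjusted p = 0.557 from edgeR), -0.09 without IR+NC-LV replicate 1 and -0.26 without IR+NC-LV replicate 3.

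Within each library the balance of CXCL8 and CXCL2 can be read without any scaling between libraries. The TPM ratio of CXCL8 to CXCL2 was 10.1, 12.8 and 9.06 in the control libraries and 13.2, 16 and 14.9 in the PRDM16 libraries. The share of CXCL8 in the summed TPM of the 10 genes was 83.6% to 87.4% in the control libraries and 88.4% to 89.5% in the PRDM16 libraries. Neither measure overlapped between the groups. They are not separate observations, because CXCL2 is the largest part of the sum after CXCL8. Of all tested entries, 17.0% did not overlap in CPM, and no such share was computed for ratios of other genes. Both measures were computed after the single genes had been seen, and no test was made. The ratio of CXCL2 to CXCL3 was 1.73 to 2.22 in the control libraries and 1.93 to 2.26 in the PRDM16 libraries, with overlap.

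The chemokines of lymphocytes, monocytes and dendritic cells were likewise not separated by the adjusted test. CXCL16 had 6.20, 6.08 and 5.40 CPM in the control libraries and 6.91, 6.22 and 6.52 CPM in the PRDM16 libraries, which did not overlap in CPM but did in TPM, with a log2 fold change of 0.15 (95% interval -0.15 to 0.45, adjusted p = 0.736 from edgeR), 0.09 without IR+NC-LV replicate 3 and 0.19 without IR+PR-LV replicate 2. Of its exon bases, 7.13% are shared with MED11 and ZMYND15 on the other strand, and the kit named in the labels does not mark strand, so that this part of the count is uncertain. None of the other 9 chemokine genes shares exon bases with a listed gene. CCL2 had 71 counts in the control libraries and 65 in the PRDM16 libraries, or 1.32 ± 0.356 and 0.983 ± 0.244 CPM (SD, n = 3 each). This is a log2 fold change of -0.42 (95% interval -1.06 to 0.22, adjusted p = 0.650 from edgeR), -0.17 without IR+NC-LV replicate 2 and -0.66 without IR+PR-LV replicate 2. CCL20 had 14.7 ± 3.16 and 16.7 ± 4.12 CPM (SD, n = 3 each). This is a log2 fold change of 0.18 (95% interval -0.28 to 0.64, adjusted p = 0.794 from edgeR). Without IR+NC-LV replicate 3 the value of CCL20 was 0.03, and without IR+PR-LV replicate 1 it was 0.37.

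CXCL10 and CXCL1 did not pass the filter. CXCL10 had 19 counts in the control libraries and 3 in the PRDM16 libraries, and each PRDM16 library was below each control library (p = 0.1, exact permutation test, 2-sided, again the lowest attainable). Of the entries that passed the filter, 9.54% were likewise lower without overlap. From the counts of CXCL10 and the library totals the rate was 7.94 times as high in the control libraries, with a counting interval of 2.34 to 41.9 (exact, 95%). This interval leaves out the spread between libraries of a group, which exceeded counting noise. Without the filter the log2 fold change of CXCL10 was -2.82 (adjusted p = 0.0587 from edgeR), short of the threshold in a fit that called 342 entries. CXCL1 had 22 and 16 counts, a rate 1.72 times as high in the control libraries with an exact interval of 0.865 to 3.51, so that no difference was detectable at this depth.

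**Figure D3:**
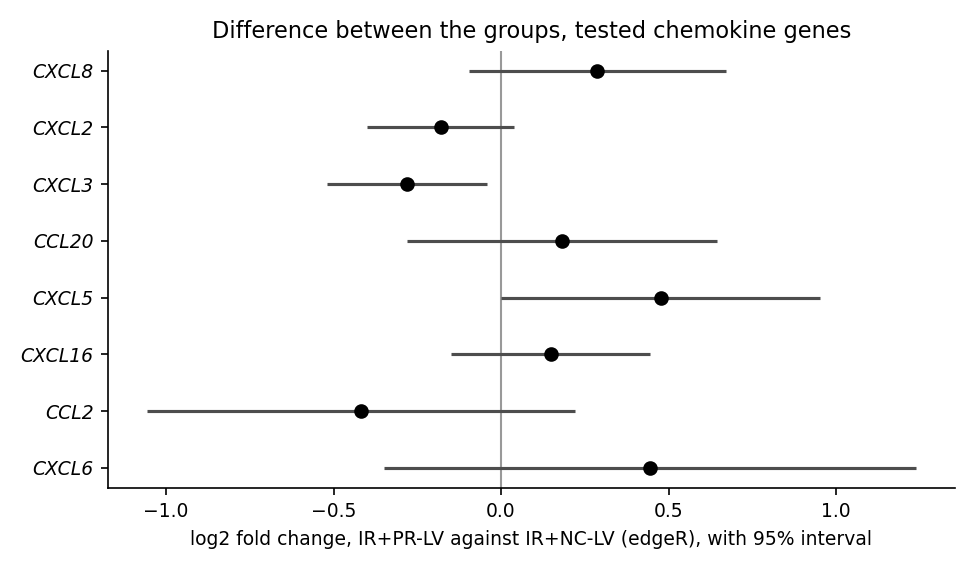
Log2 fold change of the 8 tested chemokine genes, IR+PR-LV against IR+NC-LV, from edgeR. Points are estimates and lines 95% intervals, in the order of the levels. All intervals include 0 except that of CXCL3 (-0.52 to -0.04), and none of the 8 genes passed the adjusted threshold.

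The intervals also set what these libraries can show. For CXCL8, CXCL2, CXCL3, CXCL5, CXCL16 and CCL20 the 95% intervals lie within 1 log2 unit of 0 on both sides. For CXCL6 the interval reaches 1.24 and for CCL2 -1.06, and these were the tested genes with the fewest counts.

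Much of the spread was shared between genes and lay between libraries of the same group. IR+NC-LV replicate 3 was the lowest of its group for 7 of the 8 tested genes (all but CXCL3). IR+PR-LV replicate 1 was the lowest of its group for 7 of 8 (all but CXCL16). Over entries with enough counts, the same libraries stood furthest from the others of their group, so these differences were not particular to the chemokines. Chi-square per degree of freedom, a measure of noise beyond counting, was 8.10 and 11.1 in pairs with IR+NC-LV replicate 3. It was 3.44 in the other pair of that group. In pairs with IR+PR-LV replicate 1 it was 11.6 and 13.2, against 4.25 in the other pair. The share of all entries lowest in them was not computed. In IR+NC-LV replicate 2 and IR+PR-LV replicate 2, 6 of the 8 genes each were the highest of their group. The mean of the 8 genes' log2 CPM, each centred on its own mean, was 0.04, 0.19 and -0.38 in the control libraries and -0.20, 0.20 and 0.14 in the PRDM16 libraries. Total counts were 16659853, 21154634 and 13407074 in the control libraries and 17002876, 28540041 and 18666408 in the PRDM16 libraries. Within each group the mean of the 8 genes had the order of the total counts. Across the groups it did not, since IR+PR-LV replicate 1 had more counts than IR+NC-LV replicate 1 but the lower mean. The part of depth in the shared spread was not tested.

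**Figure D4:**
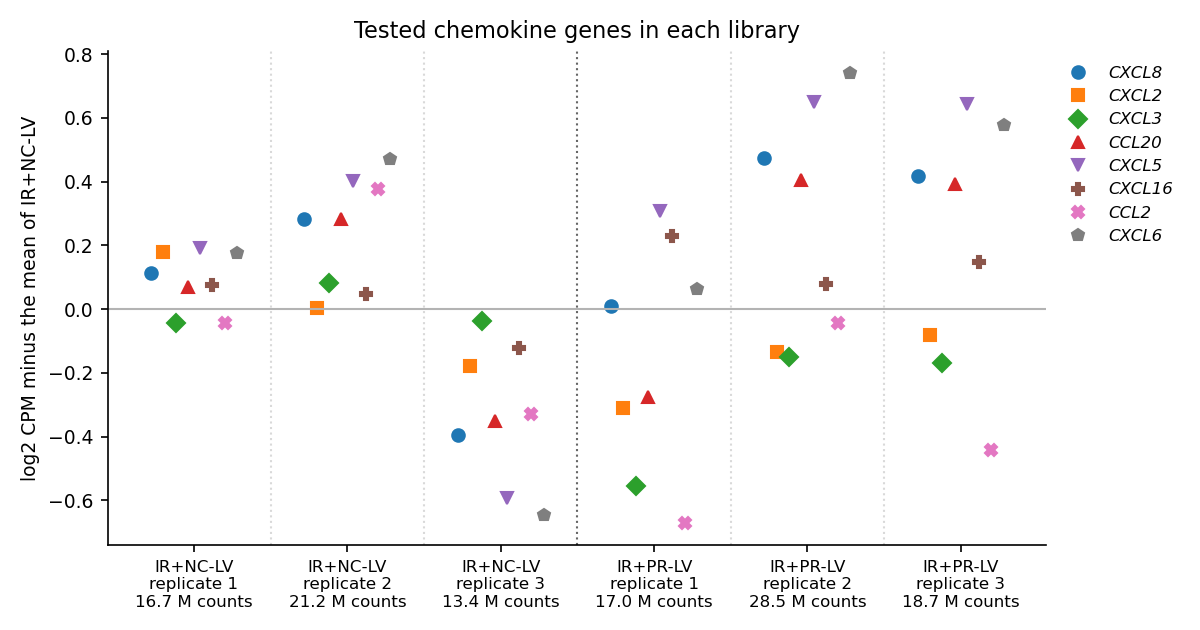
Log2 CPM of the 8 tested chemokine genes in each library, relative to the gene's mean over the 3 control libraries, with the total counts of the library written below it. Each symbol is 1 gene. In IR+NC-LV replicate 3 all 8 genes lie below 0, from -0.04 for CXCL3 to -0.65 for CXCL6.

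Among the genes whose pattern over the 6 libraries was most like this mean were BRK1 (Pearson's r = 0.997, Spearman's rho = 1), HSBP1 (r = 0.997, rho = 0.943), SLC39A8 (r = 0.994, rho = 0.943) and CYBRD1 (r = 0.993, rho = 1), out of 13961 tested genes with a mean of at least 1 CPM. With 6 libraries and so many candidates such values are a description only. BRK1 is a small subunit of an actin regulator, HSBP1 binds heat shock factor, SLC39A8 is a zinc importer and CYBRD1 a ferric reductase. Their own log2 fold changes lay between 0.02 and 0.10 (adjusted p = 0.803 to 0.935 from edgeR).

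Of 37 other chemokine ligands, 22 had a count and 3 passed the filter on low counts, none of them past the adjusted threshold. CX3CL1, the transmembrane ligand of CX3CR1, had 27.6, 25.2 and 29.9 TPM in the control libraries and 23.2, 21.5 and 20.6 TPM in the PRDM16 libraries. The groups did not overlap, and the log2 difference was -0.30 (SE 0.09, edgeR adjusted p = 0.307). The epithelial chemokine CCL28 had a mean of 22.1 TPM over the 6 libraries and a log2 fold change of 0.10, and the eosinophil attractant CCL26 had 6.13 TPM and -0.30 (edgeR adjusted p = 0.800 and 0.672). The sign of CCL28 changed without IR+PR-LV replicate 3 (-0.013). In mean TPM, CX3CL1 and CCL28 were between CXCL5 and CXCL16, although in IR+NC-LV replicate 3 CX3CL1 (29.9 TPM) was above CXCL5 (26.6 TPM).

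Chemokine receptor genes were low or absent, and 2 of 23 (ACKR4 and CXCR5) passed the filter. The receptors named above for the 10 chemokines had 0 (CXCR1), 1 (CXCR2), 7 (CXCR3), 30 (CXCR6), 0 (CCR2) and 16 (CCR6) counts in total. Of all 23, the highest were the atypical scavenger ACKR4 at a mean of 1.40 TPM and CCR10, the receptor of CCL28, at 0.786 TPM. ACKR4 had a log2 fold change of -0.37 (adjusted p = 0.707 from edgeR), CXCR5, named after its value was seen, had -0.23 (adjusted p = 0.828 from edgeR), and CCR10 did not pass the filter. The value of ACKR4 was -0.13 without IR+PR-LV replicate 2 and -0.60 without IR+PR-LV replicate 3.

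Genes of the pathways that induce chemokines were read from the same fit. Of 19 inducing cytokines and their receptors, 15 were tested and 0 passed. The highest in level, IL6ST, the shared signalling chain of the interleukin-6 family, and TNFRSF1A, the main receptor of TNF, had 208 and 195 TPM and log2 fold changes of -0.12 and 0.10 (adjusted p = 0.575 and 0.697 from edgeR). Without IR+PR-LV replicate 1 these values were -0.06 and 0.026, and without IR+PR-LV replicate 3 they were -0.16 and 0.16. The only one with an unadjusted p-value under 0.05 was IFNGR2, a chain of the interferon gamma receptor, whose entry with the most counts is a copy on a scaffold outside the chromosomes, with 58, 67 and 48 counts in the control libraries and 52, 364 and 361 in the PRDM16 libraries. Its groups overlapped (adjusted p = 0.299 from edgeR), and reads of its copies could be split by the counting.

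Among transcription factors and kinases upstream of chemokine genes, 32 of 33 listed genes were tested and 1 passed the threshold. This gene was TNFAIP3, the A20 ubiquitin editor that restrains NF-kB and is itself induced by it, with 71.2, 63.8 and 87.3 TPM in the control libraries and 44.4, 41.4 and 41.1 TPM in the PRDM16 libraries. It fell by 0.76 on the log2 scale (SE 0.09, edgeR adjusted p = 0.0198) and was lower in 3 of 3 PRDM16 libraries than in any control library. The call was lost with the replicate block and in 4 of the 6 fits that left out 1 library, while the log2 fold change was -0.76 with the block and -0.84 to -0.67 in those 6 fits. Of its exon bases, 7.16% are shared with WAKMAR2 on the other strand, so that this part of its count is uncertain, as for CXCL16.

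Unadjusted p-values under 0.05 were found for 9 of the 32 upstream genes, against 10.5% of all entries, in a list chosen with earlier results of these data known. Of the 9, 8 were lower with PRDM16, against 5.97% of all entries, and 1 was higher, against 4.55% of all entries. For 11 of the 32 the groups did not overlap, all with lower values in the PRDM16 libraries, against 9.54% of all entries. The names that follow were chosen after their values were seen. NFKB2, the p100 subunit of the alternative NF-kB pathway, had 59.5, 54.3 and 74.5 TPM in the control libraries and 42.0, 36.5 and 36.9 TPM in the PRDM16 libraries, with a log2 fold change of -0.66 (adjusted p = 0.0687 from edgeR). IRF1, an interferon-induced factor, had 43.9, 43.0 and 58.2 TPM and 33.2, 29.6 and 31.1 TPM, with -0.58 (adjusted p = 0.0799 from edgeR). The other 6 with lower values were TNFAIP3, RELB (-0.53), REL (-0.45), NFKB1 (-0.28), JUN (-0.23) and CEBPB (-0.19), and the 1 with higher values was the kinase IRAK1 (0.26). Among the members of the list with the highest levels, the NF-kB cofactor NFKBIZ (389 TPM) had a log2 fold change of 0.10 (adjusted p = 0.622 from edgeR).

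The median log2 fold change of the 32 upstream genes was -0.06, beside 0.0044 over all tested entries. In CPM, TNFAIP3, NFKB2 and IRF1 were highest in IR+NC-LV replicate 3, the library in which CXCL8, CXCL5, CXCL6, CCL20 and CXCL16 were lowest. The other tested chemokines, CXCL2, CXCL3 and CCL2, were lowest in IR+PR-LV replicate 1. A relation between these genes was not tested. Of 10 regulators of mRNA decay and 7 proteases that shed or cut chemokines, all were tested and 0 passed. In the first list HNRNPD (443 TPM) and ZFP36L1 (396 TPM), which bind AU-rich elements, had log2 fold changes of -0.04 and 0.03 (-0.013 for the first without IR+PR-LV replicate 2 and 0.0078 for the second without IR+PR-LV replicate 1), and ZFP36L2 (-0.31, unadjusted p = 0.00973, adjusted p = 0.331 from edgeR) was the only one with an unadjusted p-value under 0.05. In the second the matrix metalloproteinases MMP14 (315 TPM) and MMP1 (111 TPM) had -0.02 and -0.06, both of a sign that changed when single libraries were left out, and DPP4, which trims the amino terminus of several chemokines, had -0.24 (adjusted p = 0.291 from edgeR).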

How the data were processed

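The authors sequenced poly(A)-selected RNA as paired reads, discarded poor reads and adapters, and deposited a per-gene read count with TPM and FPKM for every library. The submitters' processing notes name featureCounts 2.0.1, DESeq2 1.16.1, CASAVA and hg38. The aligner is not given in the sources used here. In the deposited TPM, counts are divided by exon length and scaled within a library. The deposited FPKM was not used. The deposited counts were tested with edgeR 4.0.16 in R 4.3.3 (filterByExpr with 10 counts as the minimum and 15 as the minimum total, TMM factors 0.981 to 1.04, quasi-likelihood test, Benjamini-Hochberg adjustment over 15340 entries, threshold 0.05, biological coefficient of variation 0.106). CPM values are TMM-normalized. Alternatives were upper-quartile and RLE normalization, the DESeq2 1.42.0 Wald test, other filters, a replicate block, summed gene copies and leaving out each library. The procedure was run on simulated counts with 1 dispersion for all genes and no spread shared between genes. These are simpler than the present data, so that run does not show how the test handles the shared spread described above. No 2 libraries of a group agreed within counting noise (chi-square per degree of freedom 3.44 to 13.2).

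The members and gene lists were chosen with earlier results of these data known. Named were the 10 chemokines, PRDM16, the tested other ligands, from each further list the genes past the threshold and the 2 highest in mean TPM, and the 5 genes most like the chemokines in pattern. Of the genes this rule names, 2 are not reported here. Promoters were read from a RefSeq table (GRCh38.p14), exon overlaps from the file coordinates and shared stretches of 100 bases from GENCODE release 29.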

Additional observations from a re-analysis of the deposited data

How the results depend on the processing

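The signs of the 8 chemokine log2 fold changes held under all 13 alternatives in which each gene could be fitted (103 values), and 102 of these stayed on the same side of the threshold, the exception being CXCL5 without the filter on low counts. The number of chemokines past the threshold was 0, and 1 without the filter. The number of all entries past the threshold was 10, and 168 with DESeq2, 342 without the filter and 3 with the replicate block. With 1 library left out it was lowest at 1 (either IR+PR-LV replicate 3 or IR+NC-LV replicate 1) and highest at 28 (IR+NC-LV replicate 2), and it was 16 without IR+NC-LV replicate 3. The median log2 fold change of the chemokines, 0.16 over 8 genes, was -0.0061 with DESeq2 and -0.0076 without the filter, where it covers all 10 genes, CXCL1 and CXCL10 included. With 1 library left out it lay between 0.06 (without IR+NC-LV replicate 3) and 0.25. The replicate numbers were not taken as pairs, since same-numbered libraries correlated at -0.0088, 0.0514 and 0.0706 in their deviations from the group means, and the block changed no call of a chemokine. TNFAIP3 had an adjusted p-value of 0.0639 from edgeR with the block and of 0.0518 to 0.121 in the 4 fits without IR+NC-LV replicate 1 or without 1 of the 3 IR+PR-LV libraries, with a log2 fold change of -0.76 with the block and of -0.84 to -0.67 with 1 library left out. The sign reversed in single fits with 1 library left out for CCL28 (-0.013 to 0.20, negative without IR+PR-LV replicate 3), MMP1 (-0.26 to 0.39, positive without IR+NC-LV replicate 3) and MMP14 (-0.13 to 0.058, positive without IR+PR-LV replicate 3 and, at 0.02, without IR+NC-LV replicate 2). With the replicate block MMP1 was at 0.025. The causes were not tested. In mean CPM, without division by length, 6 of the 10 chemokines kept their place in the order of levels, and 8 of 10 in each single library by TPM. Depth limits CXCL1, CXCL10 and CXCL6 most.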
